A study of Homo sapiens with 16 samples.

Results

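Serine/arginine-rich splicing factors (SR proteins, SRSF genes), heterogeneous nuclear ribonucleoproteins (hnRNPs, HNRNP genes) and the CDC-like kinases (CLK genes) were followed in LN229 cells under the regular and the ischemic condition. The members were the listed genes whose symbol is SRSF, HNRNP or CLK followed by the member's number or letters, without pseudogenes. Of 42 RefSeq genes with such a symbol, 35 were in both deposited tables, which were 11 of 12 SRSF, 21 of 26 HNRNP and 3 of 4 CLK genes, out of 13475 genes listed in both. CLK2, SRSF12, HNRNPA1L3 and HNRNPCL1 to HNRNPCL4 were not analysed here.

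SR proteins bind exonic enhancers through RNA recognition motifs and recruit the spliceosome through a domain rich in arginine and serine, whereas many hnRNPs bind silencers and introns and oppose them. CLK kinases, together with the SRPK kinases, phosphorylate that domain and so set the nuclear location and activity of SR proteins. Many SRSF, HNRNP and CLK genes carry exons or introns whose inclusion or retention takes the transcript to nonsense-mediated decay (NMD) or keeps it in the nucleus, and hypoxia and heat are known to alter the splicing of CLK transcripts.

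LN229 is a cell line from a human glioblastoma (GBM), and all 8 groups used the same line without a transgene named in their labels. In the first experiment, regular cells (10% serum) were compared with ischemic cells (2 mM glucose, 0.1 mM glutamine, 1% serum and about 1% oxygen), and in the second experiment both conditions were combined with the vehicle DMSO, the p38α inhibitor VX745 (2 µM in the study's methods) or the MK2 inhibitor MK25 (10 µM). MK2 is a kinase activated by p38α. Each group had 2 RNA sequencing libraries, which gives 16 in all, and since the labels do not say that replicates came from separate cultures, p-values measured only the spread between these libraries.

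Between 20122017 and 37562668 reads per library fell on listed genes, and the 10 most abundant genes took 5.66% to 6.45% of them in ischemic and 4.23% to 4.65% in regular libraries. The glial and glioma markers VIM, NES, CD44, EGFR, S100B and SOX2 were expressed, GFAP was low (median log2 value 0.95 in regular and 0.16 in ischemic cells of the first experiment), and the leukocyte, endothelial, neuronal, oligodendrocyte and epithelial markers PTPRC, PECAM1, CDH5, RBFOX3, MBP, MOG and EPCAM were not among the listed genes, whereas CD68, ITGAM and SYT1 were. Between regular and ischemic cells of the first experiment the median went from 4.51 to 5.27 for CD68, from -1.81 to -0.71 for ITGAM, from 3.72 to 6.30 for SYT1 and from 2.89 to 1.21 for the glial gene OLIG2. It also fell from 6.47 to 3.36 for SOX2, from 9.81 to 8.45 for NES and from 5.45 to 4.61 for S100B. It rose from 11.37 to 12.75 for VIM and from 5.87 to 7.03 for EGFR, and was 9.66 and 9.69 for CD44. The part of these marker differences in the results was not tested. The hypoxia-induced gene CA9 was at 7.64 to 7.70 in the ischemic and -1.94 to -1.62 in the regular libraries of the first experiment. In the second experiment it was also raised in both regular MK25 libraries (2.14 and 2.30, against -1.77 and 0.27 with DMSO), and regular DMSO replicate 2 had the higher of its group's CA9 values. BNIP3, another hypoxia-induced gene, was at 7.09 and 6.99 in the regular MK25 libraries against 5.24 and 5.04 with DMSO. An effect of the compound and a difference in culture or handling of these libraries cannot be told apart, and the MK25 comparisons that use regular culture and the MK25 interaction cannot be made without them.

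All values are log2 normalized CPM (reads scaled by a library size that normalization adjusted, so that totals differ between libraries). A difference of 1 is a 2-fold change. Members were abundant genes, with a median level of 7.80 in the first experiment against 4.70 for all genes, and 30 of 35 had a mean of at least 6. The least abundant was HNRNPH2, with 79 to 161 reads per library. Per kilobase of transcript, SRSF2 was the highest SRSF gene of regular cells (210.6 CPM per kb), HNRNPA2B1 the highest HNRNP gene (442.1 CPM per kb) and CLK3 the highest CLK gene (32.2 CPM per kb). In ischemic cells CLK1 was the highest CLK gene at 127.5 CPM per kb, whereas SRSF2 (109.1 CPM per kb) and HNRNPA2B1 (368.0 CPM per kb) kept the top rank of their families at lower levels.

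**Figure D1:**
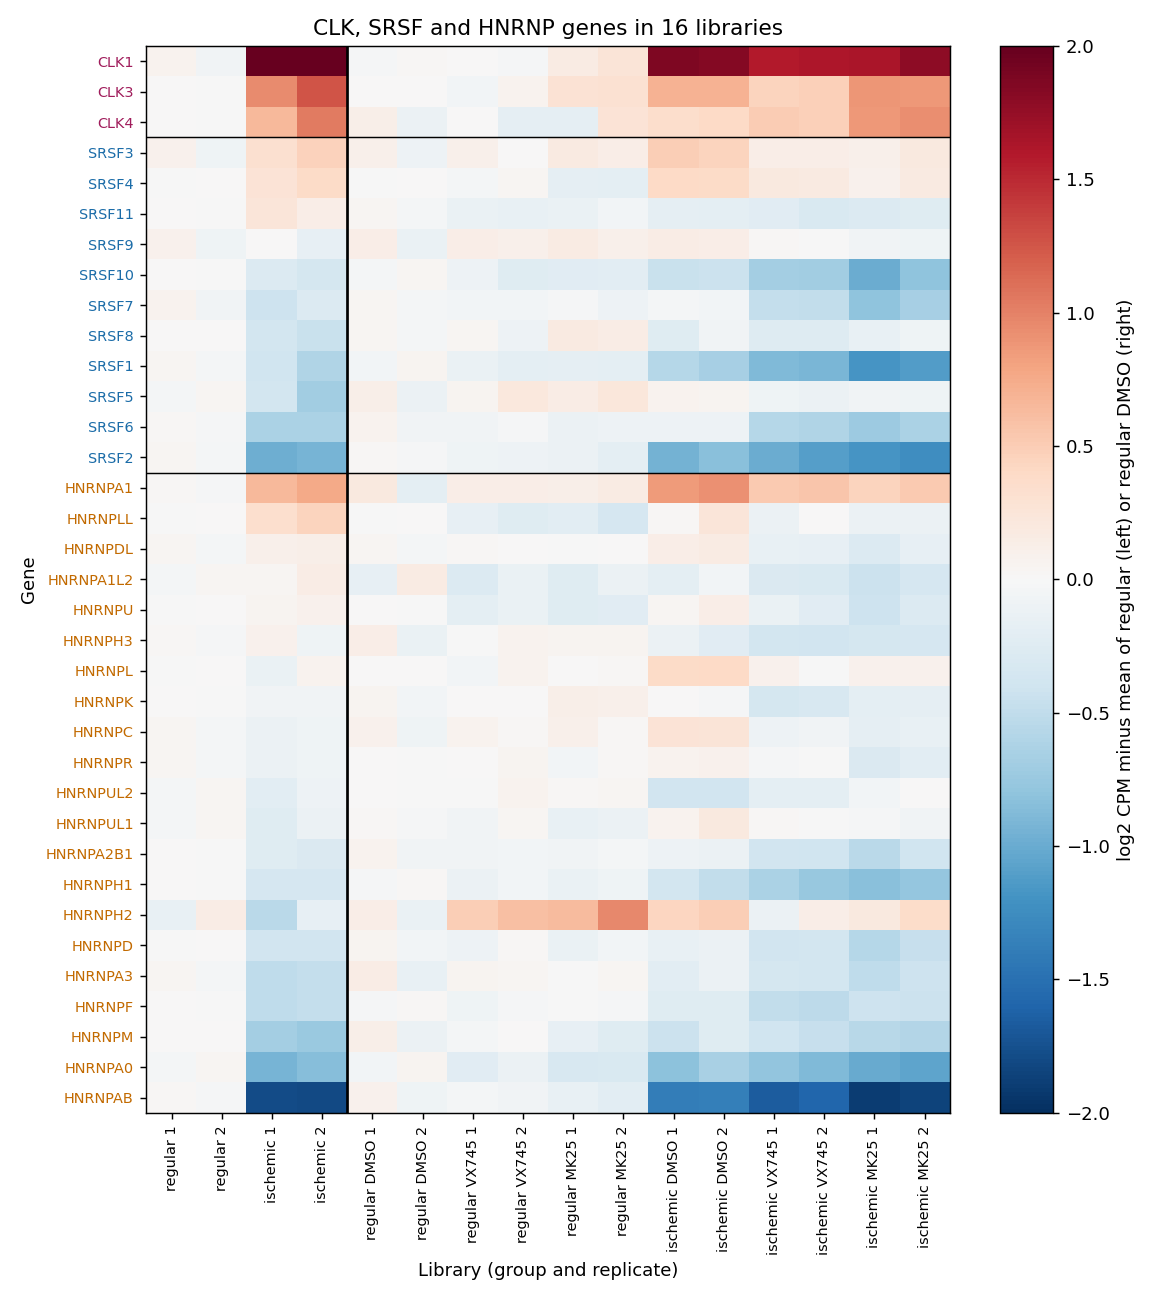
Heat map of 35 genes (rows, named in colour by family, ordered by their change in the first experiment) in 16 libraries (columns), coloured by log2 CPM minus the mean of the regular libraries of the first experiment or the regular DMSO libraries of the second. The 3 CLK rows are red in every ischemic column, HNRNPAB, HNRNPA0 and SRSF2 are blue there, and most other rows differ by less than 1 in either direction.

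Ischemic culture raised the CLK kinases and lowered a part of the SRSF and HNRNP genes. In the first experiment all 3 CLK genes rose at an adjusted p under 0.05 (limma), with a median change of 1.10. Of 11 SRSF genes 3 rose, 7 fell and 1 did not pass, with a median of -0.34, and of 21 HNRNP genes 2 rose, 9 fell and 10 did not pass, with a median of -0.15. Over all 13559 genes 35.2% rose and 35.2% fell, with a median of -0.01, so that the 8 members that rose and the 16 that fell stand beside a background in which most genes passed. In bulk RNA, a change in the number of cells that express a gene and a change in RNA per cell cannot be told apart. A change of at least 2-fold was reached by CLK1, CLK3 and, downwards, HNRNPAB, whereas 11.3% of all genes rose and 9.1% fell by that much.

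CLK1, a kinase that phosphorylates SR proteins in the nucleus, changed more than any other member. It was at 5.57 and 5.42 in the regular and at 7.56 and 8.14 in the ischemic libraries, a 5.12-fold increase (log2 difference 2.36, SE 0.14, adjusted p = 1.86e-08). The ischemic replicates were 0.58 apart, the largest gap of any member in that group, but both lay far above the regular libraries. In the second experiment CLK1 was at 5.42 and 5.48 in regular DMSO and at 7.32 and 7.29 in ischemic DMSO libraries, a 3.62-fold increase (1.86, SE 0.06, adjusted p = 3.5e-14).

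CLK3, another kinase of the family, was at 5.91 and 5.89 in the regular and at 6.84 and 7.15 in the ischemic libraries (1.10, SE 0.09, adjusted p = 5.1e-07), and at 5.95 and 5.95 against 6.64 and 6.65 with DMSO (0.69, SE 0.06, adjusted p = 6.65e-09). CLK4, the close relative of CLK1, was the least abundant of the family. It was at 4.23 and 4.21 against 4.87 and 5.26 (0.84, SE 0.12, adjusted p = 4.4e-05), and at 4.51 and 4.28 against 4.75 and 4.79 with DMSO (0.37, SE 0.11, adjusted p = 0.00789). Without regular DMSO replicate 2 this last difference was 0.26 and did not pass (adjusted p = 0.106). The regular and ischemic libraries did not overlap for these 3 genes in either experiment, as for 85.2% of all genes in the first experiment and 83.3% with DMSO. The summed level of the family rose from 126.3 and 120.5 CPM to 332.1 and 463.0 CPM in the first experiment, and CLK1 went from 37.5% and 35.5% of that sum to 56.8% and 60.9%.

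**Figure D2:**
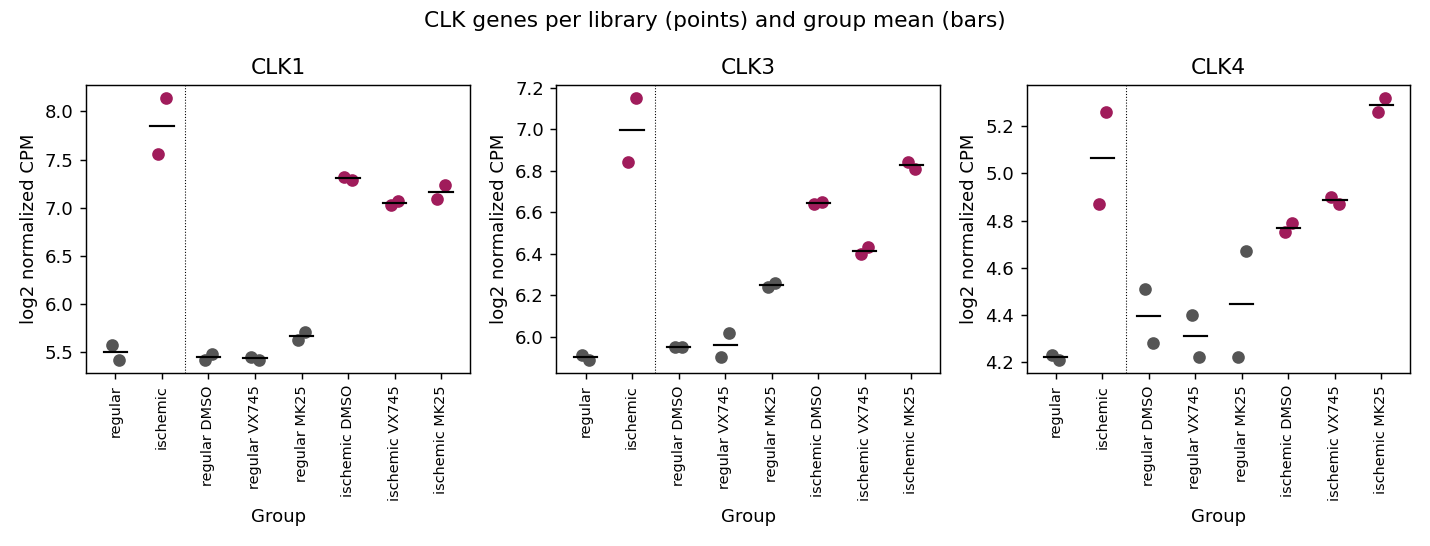
Levels of CLK1, CLK3 and CLK4 in log2 normalized CPM in 8 groups, with a point per library (ischemic in purple, regular in grey) and a bar at the group mean. Each gene is higher in every ischemic library than in any regular library of the same treatment, and CLK4 is highest with MK25 within the ischemic libraries of the second experiment.

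The windows of 250 bases before the RefSeq starts of the CLK genes (GRCh38.p14, 5′ to 3′ on the gene's strand) are shown because the family rose together. Capitals mark the hypoxia-inducible factor core, ACGTG or GCGTG on either strand, and an overlap of both strands at CACGTG is counted on each.
CLK1 (chr2:200864659-200864908, minus strand): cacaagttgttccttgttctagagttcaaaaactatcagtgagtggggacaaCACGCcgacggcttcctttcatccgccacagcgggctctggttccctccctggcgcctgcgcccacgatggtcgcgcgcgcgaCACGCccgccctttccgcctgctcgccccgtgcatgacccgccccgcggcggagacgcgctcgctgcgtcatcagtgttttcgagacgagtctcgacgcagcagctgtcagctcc
CLK3 (chr15:74608122-74608371, plus strand): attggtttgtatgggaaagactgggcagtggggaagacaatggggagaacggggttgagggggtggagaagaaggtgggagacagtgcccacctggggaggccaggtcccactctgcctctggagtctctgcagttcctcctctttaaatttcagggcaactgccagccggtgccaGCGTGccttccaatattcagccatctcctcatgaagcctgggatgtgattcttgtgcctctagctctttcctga
CLK4 (chr5:178627051-178627300, minus strand): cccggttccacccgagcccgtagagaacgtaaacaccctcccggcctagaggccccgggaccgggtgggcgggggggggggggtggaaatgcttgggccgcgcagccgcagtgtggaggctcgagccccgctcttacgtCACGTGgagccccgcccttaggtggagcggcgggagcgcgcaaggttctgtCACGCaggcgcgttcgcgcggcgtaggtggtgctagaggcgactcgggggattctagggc
Of the 35 members 33 had an entry, and 27 of these (81.8%) held the core in this window, against 57.4% of the windows of all listed genes and 43.1% of all 27305 windows. By family it was in 3 of 3 CLK, 8 of 10 SRSF and 16 of 20 HNRNP windows. The NF-Y box CCAAT was in 48.5% of members' and 35.2% of listed genes' windows, and TGACGTCA (cAMP response element) and TGATGNAAT (ATF4 composite element) were in none of the members' windows and in 2.9% and 0.5% of the listed ones.

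The core was in 6 of 7 windows of members that rose in the first experiment, in 11 of 15 of those that fell and in 10 of 11 of those that did not pass. It was absent from the window of HNRNPAB, whose fall was the largest of any member, it occurred 5 times in that of SRSF1, which fell, and 2 times in that of SRSF4, which rose in all 4 ischemic comparisons. These 3 windows follow in the same notation.
HNRNPAB (chr5:178204283-178204532, plus strand): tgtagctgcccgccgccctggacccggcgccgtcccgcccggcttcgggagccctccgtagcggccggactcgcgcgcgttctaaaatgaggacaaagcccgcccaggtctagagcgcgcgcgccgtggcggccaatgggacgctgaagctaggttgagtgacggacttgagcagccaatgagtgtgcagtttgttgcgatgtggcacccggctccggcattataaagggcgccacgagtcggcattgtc
SRSF1 (chr17:58007247-58007496, minus strand): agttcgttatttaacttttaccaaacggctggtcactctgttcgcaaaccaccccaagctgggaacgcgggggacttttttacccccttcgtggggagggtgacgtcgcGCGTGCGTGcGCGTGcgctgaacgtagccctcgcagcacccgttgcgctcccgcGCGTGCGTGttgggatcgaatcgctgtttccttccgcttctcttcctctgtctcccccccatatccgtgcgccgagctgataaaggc
SRSF4 (chr1:29181901-29182150, minus strand): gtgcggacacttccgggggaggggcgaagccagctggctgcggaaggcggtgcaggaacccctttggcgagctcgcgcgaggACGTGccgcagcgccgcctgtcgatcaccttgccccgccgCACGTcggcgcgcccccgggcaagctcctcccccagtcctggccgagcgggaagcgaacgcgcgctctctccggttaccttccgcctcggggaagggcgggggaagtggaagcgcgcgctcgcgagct

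Among SRSF genes the falls were led by SRSF2, which binds exonic enhancers and whose own transcript is subject to NMD. It was at 8.67 and 8.60 in regular and at 7.66 and 7.71 in ischemic libraries (-0.95, SE 0.07, adjusted p = 8.32e-08). With DMSO it fell by 0.90 on the log2 scale (SE 0.06, adjusted p = 2.77e-10), from 8.54 and 8.48 to 7.56 and 7.67. The ischemic libraries of both experiments lay below every regular library.

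SRSF6, a regulator of exons such as those of tau, was at 8.01 and 7.96 against 7.35 and 7.35 (-0.63, SE 0.06, adjusted p = 2.52e-06). SRSF5 was at 6.82 and 6.90 against 6.50 and 6.16 (-0.52, SE 0.10, adjusted p = 0.000418). Neither difference passed in the DMSO libraries, where SRSF6 was at 7.79 and 7.64 against 7.62 and 7.61 (-0.10, 95% interval -0.22 to 0.02) and SRSF5 differed by 0.06 (SE 0.07, adjusted p = 0.443). SRSF1, the prototype of the family and a splicing oncoprotein, did pass in both. It was at 9.09 and 9.0 against 8.64 and 8.45 (-0.50, SE 0.08, adjusted p = 9.07e-05), and it fell by 0.62 with DMSO (SE 0.06, adjusted p = 2.11e-08).

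SRSF3, the smallest SR protein, and SRSF4 went the other way. SRSF3 was at 8.52 and 8.35 against 8.76 and 8.89 (0.39, SE 0.08, adjusted p = 0.000596) and rose by 0.47 with DMSO (SE 0.06, adjusted p = 3.79e-06). SRSF4 was at 7.16 and 7.17 against 7.44 and 7.54 (0.33, SE 0.07, adjusted p = 0.0009) and rose by 0.40 with DMSO (SE 0.05, adjusted p = 4.53e-06). SRSF11, known as p54, rose by 0.19 in the first experiment (7.31 and 7.29 against 7.54 and 7.43, adjusted p = 0.0285) and fell by 0.19 with DMSO (adjusted p = 0.00561), so its calls were opposite. Its first call was lost after median centring, quantile normalization or without the variance trend.

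Of the remaining SRSF genes, SRSF7, SRSF8 and SRSF10 fell by 0.34, 0.40 and 0.31 in the first experiment, and of these SRSF10, a splicing repressor when dephosphorylated, also fell with DMSO (-0.43, SE 0.07, adjusted p = 1.36e-05). SRSF9 differed by -0.08 and 0.15 and passed in neither. The summed SRSF level went from 2470.2 and 2341.1 CPM to 2030.7 and 2010.4 CPM in the first experiment, a ratio of 0.84, and with DMSO the ratio was 0.888. All listed genes summed to 925996 and 926417 CPM in the regular and 1029108 and 1056639 CPM in the ischemic libraries of the first experiment. The part of this in the ratio of 0.84 was not tested. The CLK sum of the first experiment went from 51.1 and 51.5 to 163.5 and 230.3 on a scale on which the SRSF sum of each library is 1000.

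HNRNPAB, a member of the A/B group that also binds DNA and is known as CBF-A, had the largest fall. It was at 8.57 and 8.53 in regular and at 6.76 and 6.74 in ischemic libraries (-1.80, SE 0.06, adjusted p = 2.19e-10), a 3.48-fold decrease. With DMSO the decrease was 2.60-fold, from 8.76 and 8.59 to 7.29 and 7.31 (-1.38, SE 0.06, adjusted p = 1.22e-12). HNRNPA0, which binds AU-rich elements and is a substrate of MK2, was at 8.21 and 8.28 against 7.32 and 7.40 (-0.89, SE 0.07, adjusted p = 1.83e-07) and fell by 0.73 with DMSO (SE 0.07, adjusted p = 2.08e-08). HNRNPM was at 8.70 and 8.70 against 8.02 and 7.96 (-0.71, SE 0.06, adjusted p = 9.11e-07) and fell by 0.33 with DMSO (SE 0.07, adjusted p = 0.000602). All 3 of these genes fell in both experiments.

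HNRNPA3 was at 8.34 and 8.27 against 7.80 and 7.83 (-0.49, SE 0.07, adjusted p = 2.54e-05), and with DMSO its difference of -0.17 did not pass (adjusted p = 0.0516). HNRNPF, which binds G-rich runs, fell by nearly the same amount (-0.49, SE 0.06, adjusted p = 2.12e-05) and fell by 0.24 with DMSO (SE 0.05, adjusted p = 0.000386). The other HNRNP falls of the first experiment were between 0.17 and 0.38 and belonged to HNRNPD, HNRNPH1, HNRNPA2B1 and HNRNPUL1.

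HNRNPA1, an abundant repressor of exon inclusion, rose. It was at 8.99 and 8.95 against 9.62 and 9.72 (0.70, SE 0.07, adjusted p = 1.89e-06) and with DMSO at 8.92 and 8.52 against 9.57 and 9.63 (0.88, SE 0.09, adjusted p = 6.72e-08). Its regular DMSO libraries were 0.39 apart, the widest gap of any member in that group. Reads of HNRNPA1, HNRNPA1L2 and the pseudogene HNRNPA1P10, which the tables also list, are hard to tell apart, so its level is uncertain. The pseudogene moved by 0.84 (SE 0.08, adjusted p = 8.19e-07) and 0.67 (SE 0.08, adjusted p = 7.51e-07) in the same comparisons, whereas HNRNPA1L2 differed by 0.10 and -0.13 and did not pass.

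HNRNPLL, a regulator of exon skipping known from T cells, rose in the first experiment, from 5.28 and 5.30 to 5.63 and 5.74 (0.39, SE 0.08, adjusted p = 0.0007), but its difference of 0.13 with DMSO did not pass (adjusted p = 0.122). Conversely HNRNPC, which masks cryptic exons in Alu elements, HNRNPL, which binds CA repeats, and HNRNPDL rose with DMSO, by 0.27, 0.39 and 0.15, after differences of -0.10, -0.02 and 0.11 that did not pass in the first experiment. After quantile normalization HNRNPC and HNRNPDL were on the other side of 0 with DMSO (-0.11 and -0.12). Of 13 HNRNP genes that passed with DMSO, 6 rose and 7 fell. Whether the 2 experiments differed was not tested.

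**Figure D3:**
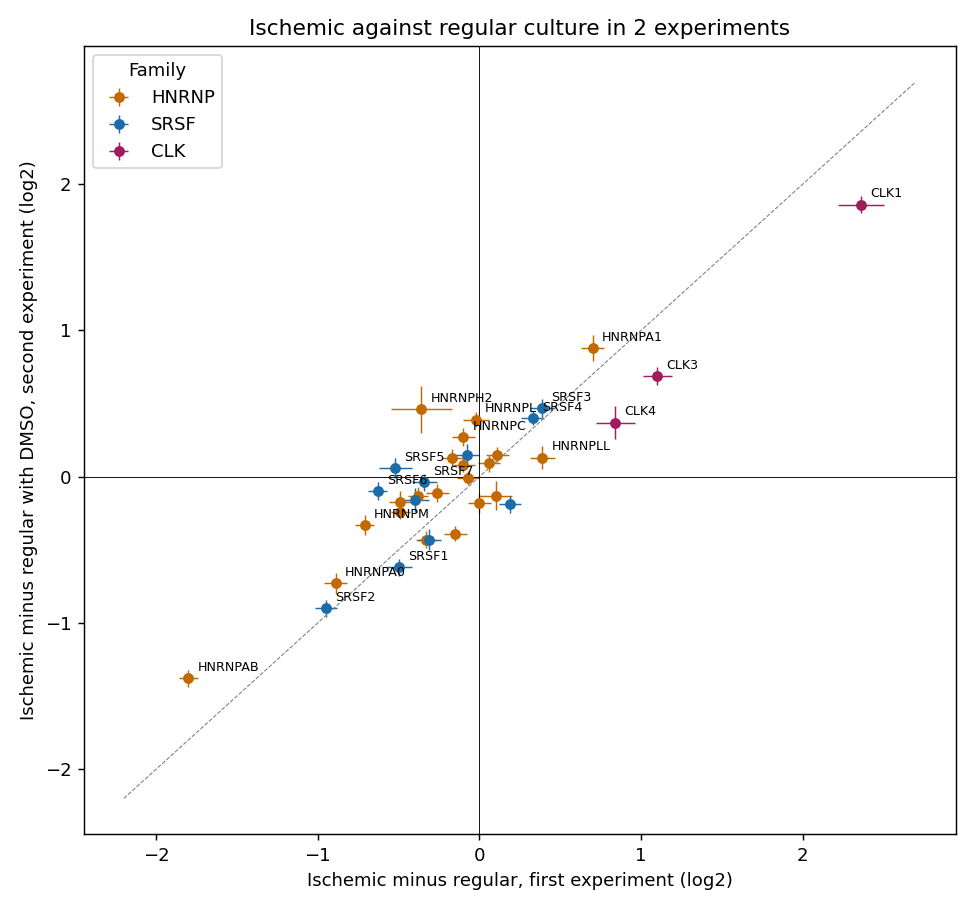
Difference between ischemic and regular culture in log2 units in the first experiment (horizontal) and with DMSO in the second (vertical), with a point per gene, bars of 1 standard error and a dashed line of equal differences. CLK1, CLK3, CLK4 and HNRNPA1 lie to the upper right, HNRNPAB, SRSF2 and HNRNPA0 to the lower left, and most other genes lie within 0.5 of 0 on the vertical axis.

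With DMSO, 11 members rose and 11 fell, beside 34.4% and 35.2% of all 14024 genes. The balance between rises and falls depended on the scaling, since after quantile normalization 7 members rose and 22 fell in either experiment, against 8 and 16 in the first as deposited. Shares of all genes after that normalization are not given here, so these counts have no background beside them. Of the 35 members, 14 were called in the same direction in both experiments and 2, SRSF11 and HNRNPUL1, in opposite directions, beside 56.1% and 1.17% of the 13475 genes listed in both tables.

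Ischemic and regular culture were also compared within each inhibitor. With VX745, 5 members rose and 20 fell (34% and 32.6% of all genes), and with MK25, 5 rose and 23 fell (33.5% and 33.7%). The MK25 counts rest on the regular libraries in which CA9 was raised, whose part in them was not tested. Over all 4 comparisons, which share no library, 5 genes rose each time, namely CLK1, CLK3, CLK4, HNRNPA1 and SRSF4. In the same way 8 genes fell each time, namely HNRNPA0, HNRNPAB, HNRNPF, HNRNPH1, HNRNPM, SRSF1, SRSF2 and SRSF10. Of all 13475 genes in both tables, 23% rose and 22% fell each time. HNRNPU, an RNA-binding protein of the nuclear matrix, and HNRNPA1L2 passed in none of the 4. SRSF4 lost its call with VX745 (0.19, SE 0.05) after quantile normalization.

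Within ischemic culture both inhibitors lowered most members by small amounts. With VX745, 1 member rose and 21 fell against DMSO, beside 14% and 14.9% of all genes, and the medians were -0.20 for SRSF, -0.25 for HNRNP and -0.22 for CLK genes against 0.00 for all genes. With MK25, 3 rose and 25 fell, beside 19.8% and 22% of all genes, with medians of -0.32, -0.30 and 0.18. Abundant genes fell more often in general, since among all genes with a mean of at least 6, a limit set after the data were seen, 33.9% fell with VX745 and 44.5% with MK25, with medians of -0.10 and -0.13. After quantile normalization 7 members fell with VX745 and 14 with MK25, for which shares of all genes are not given here. Both comparisons used the same DMSO libraries.

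The 3 genes with the smallest adjusted p for VX745 were SRSF6, SRSF7 and HNRNPL. SRSF6 was at 7.62 and 7.61 with DMSO and at 7.15 and 7.11 with VX745 (-0.49, SE 0.06, adjusted p = 1.36e-05). SRSF7, an SR protein with a zinc knuckle that also acts in 3′ end choice, was at 7.46 and 7.45 against 7.02 and 7.01 (-0.44, SE 0.06, adjusted p = 3.5e-05). HNRNPL was at 8.89 and 8.91 against 8.59 and 8.50 (-0.36, SE 0.05, adjusted p = 0.000143). In all 3 the treated libraries lay below both DMSO libraries, but the genes were picked by adjusted p in this comparison, which makes that likely beforehand. The 2 groups did not overlap for 33 of the 35 members, and the share over all genes is not given here. No member reached a 1.5-fold change, which 4.35% of all genes did upwards and 0.906% downwards.

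With MK25, SRSF7 and SRSF6 reached a 1.5-fold decrease, which 2.65% of all genes did. SRSF7 was at 6.70 and 6.83 (-0.69, SE 0.06, adjusted p = 9.81e-08) and SRSF6 at 6.99 and 7.08 (-0.59, SE 0.06, adjusted p = 6.83e-07). SRSF1 followed, at 8.37 and 8.28 with DMSO against 7.76 and 7.83 with MK25 (-0.53, SE 0.06, adjusted p = 1.3e-06). For each of them the MK25 libraries were also below the VX745 libraries, which were at 7.02 and 7.01, 7.15 and 7.11, and 8.05 and 8.02, although for SRSF6 the difference between the inhibitors did not pass (-0.10, SE 0.06, adjusted p = 0.263). These genes were picked for their fall in the same MK25 libraries.

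The sums of the SRSF and HNRNP families in ischemic culture showed the same order, but the libraries do not share a total. All listed genes summed to 1109197 and 1118967 CPM with DMSO, 1027955 and 1022511 CPM with VX745 and 1020223 and 1015660 CPM with MK25. The part of this in the family sums was not tested. SRSF genes summed to 1966.8 and 1942.8 CPM with DMSO, 1632.6 and 1597.5 CPM with VX745 and 1480.3 and 1547.0 CPM with MK25 in ischemic culture. HNRNP genes summed to 8637.4 and 8810.5 CPM, 7357.2 and 7249.0 CPM, and 6850.0 and 7132.2 CPM. CLK genes were at 286.5 and 284.0 CPM, 245.1 and 249.6 CPM, and 288.3 and 303.1 CPM, so the MK25 libraries were not below DMSO for this family.

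**Figure D4:**
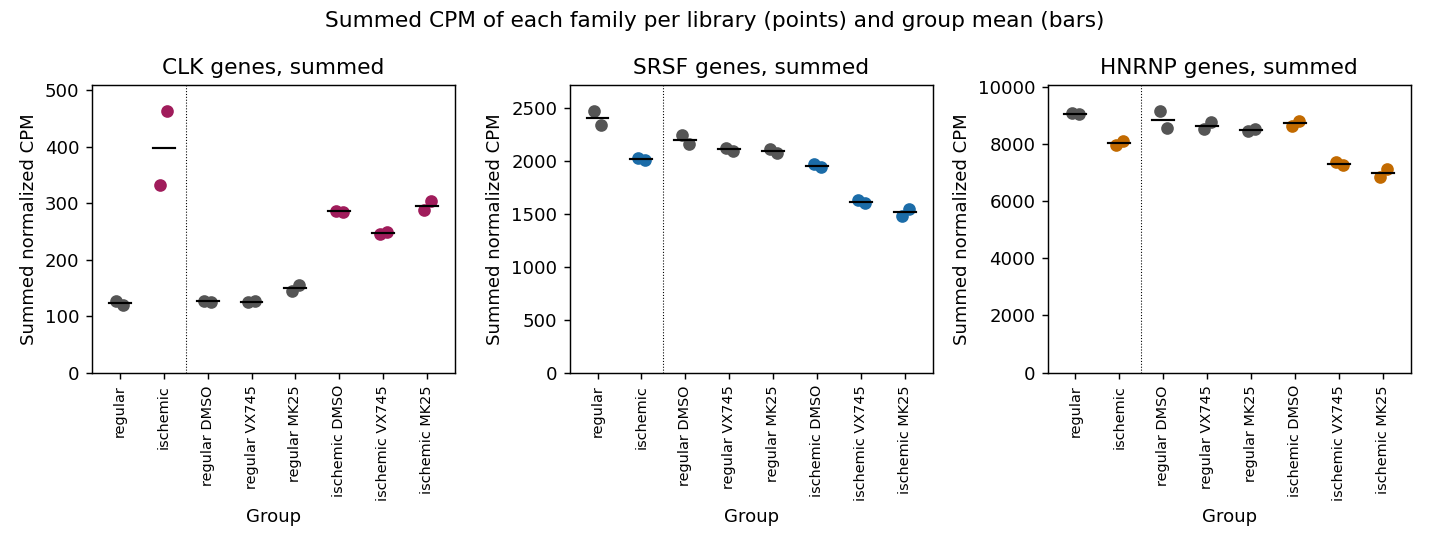
Summed normalized CPM of the 3 CLK, 11 SRSF and 21 HNRNP genes in 8 groups, with a point per library (coloured for ischemic, grey for regular) and a bar at the group mean, on axes that start at 0. The CLK sum is 2.25 times higher in ischemic than in regular DMSO cells, and the SRSF and HNRNP sums of ischemic cells are lower with VX745 and MK25 than with DMSO. The libraries do not share a total of normalized CPM.

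CLK genes responded to the inhibitors one by one. CLK1 fell with VX745 in ischemic culture, to 7.03 and 7.07 (-0.26, SE 0.06, adjusted p = 0.00498), and with MK25 was at 7.09 and 7.24 (-0.14, 95% interval -0.27 to -0.01, adjusted p = 0.0719). CLK3 fell with VX745, to 6.40 and 6.43 (-0.22, SE 0.06, adjusted p = 0.00691), and rose with MK25, to 6.84 and 6.81 (0.18, SE 0.06, adjusted p = 0.0166), the only member with opposite calls. After quantile normalization the falls of CLK1 and CLK3 with VX745 did not pass, and the rise of CLK3 with MK25 was lost without 3 of the 4 libraries in turn. CLK4 rose with MK25, to 5.26 and 5.32 (0.52, SE 0.11, adjusted p = 0.00166), and with VX745 was at 4.90 and 4.87 (0.11, 95% interval -0.13 to 0.36). HNRNPUL2, a nuclear protein of the SAF-A family, was the other gene that rose, by 0.20 with VX745 (SE 0.05, adjusted p = 0.0116) and 0.37 with MK25 (SE 0.05, adjusted p = 4.03e-05). Its call with VX745 was lost without any 1 of the 4 libraries.

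Set against each other in ischemic culture, at the different doses used, MK25 gave higher levels than VX745 for CLK3 (0.40, SE 0.06, adjusted p = 5.96e-05), CLK4 (0.40, SE 0.11, adjusted p = 0.0199) and HNRNPUL2 (0.18, SE 0.05, adjusted p = 0.0289). It gave lower levels for SRSF1, SRSF7, SRSF10, HNRNPA0, HNRNPAB and HNRNPR, by 0.20 to 0.25. Beside these 3 higher and 6 lower members, 8.22% of all genes were higher and 10.2% lower. Of the 3711 genes with a mean of at least 6, 405 were higher and 607 lower. With each of the 4 libraries left out in turn, 1 member was higher and 0 to 6 were lower, with 0 lower without ischemic MK25 replicate 1, and of the 9 calls that of CLK3 was kept throughout.

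The inhibitors were compared with DMSO in regular culture as well. With VX745 none of the 35 passed in limma at an adjusted p under 0.05, beside 0.178% of all genes higher and 0.157% lower. Without adjustment 7 members were under 0.05, beside 2075 of all 14024 genes and 620 of the 3711 with a mean of at least 6. For 34 of the 35 members the 95% interval lay within a 1.5-fold change. The smallest adjusted p values were those of HNRNPH2 (1.98 and 1.71 with DMSO, 2.34 and 2.44 with VX745, difference 0.54, adjusted p = 0.139), SRSF1 (8.89 and 8.99 against 8.80 and 8.74, difference -0.17, adjusted p = 0.162) and HNRNPU (9.83 and 9.81 against 9.62 and 9.68, difference -0.17, adjusted p = 0.198).

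With MK25 in regular culture, 3 members rose and 7 fell, beside 7% and 5.21% of all genes. Of the 3711 genes with a mean of at least 6, 347 rose and 346 fell. CLK3 rose from 5.95 and 5.95 to 6.24 and 6.26 (0.30, SE 0.06, adjusted p = 0.00175), CLK1 rose to 5.62 and 5.71 (0.22, SE 0.06, adjusted p = 0.0294), and HNRNPH2 rose to 2.48 and 2.81 (0.80, SE 0.16, adjusted p = 0.0033). HNRNPA0 fell from 8.15 and 8.27 to 7.89 and 7.90 (-0.31, SE 0.07, adjusted p = 0.00447). The other falls, in SRSF1, SRSF4, SRSF10, HNRNPAB, HNRNPLL and HNRNPU, were of 0.18 to 0.27. With each library left out in turn 2 to 5 members fell, with 2 without either regular MK25 library or regular DMSO replicate 2. Without the variance trend 0 of the 7 falls and, of the rises, not that of CLK1 passed. These are the libraries in which CA9 was raised, and PDK1, another hypoxia-induced gene, was at 5.33 and 5.34 in them against 3.62 and 3.34 with DMSO. The part of this in the CLK and HNRNP differences was not tested. CLK1 and CLK3 were also higher with MK25 than with VX745 in regular culture, by 0.23 (SE 0.06, adjusted p = 0.0357) and 0.29 (SE 0.06, adjusted p = 0.00362), as were 3.96% of all genes, whereas 1.43% were lower. With each library left out in turn, the call of CLK1 was lost in 3 of 4 fits and that of CLK3 without regular VX745 replicate 1.

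**Figure D5:**
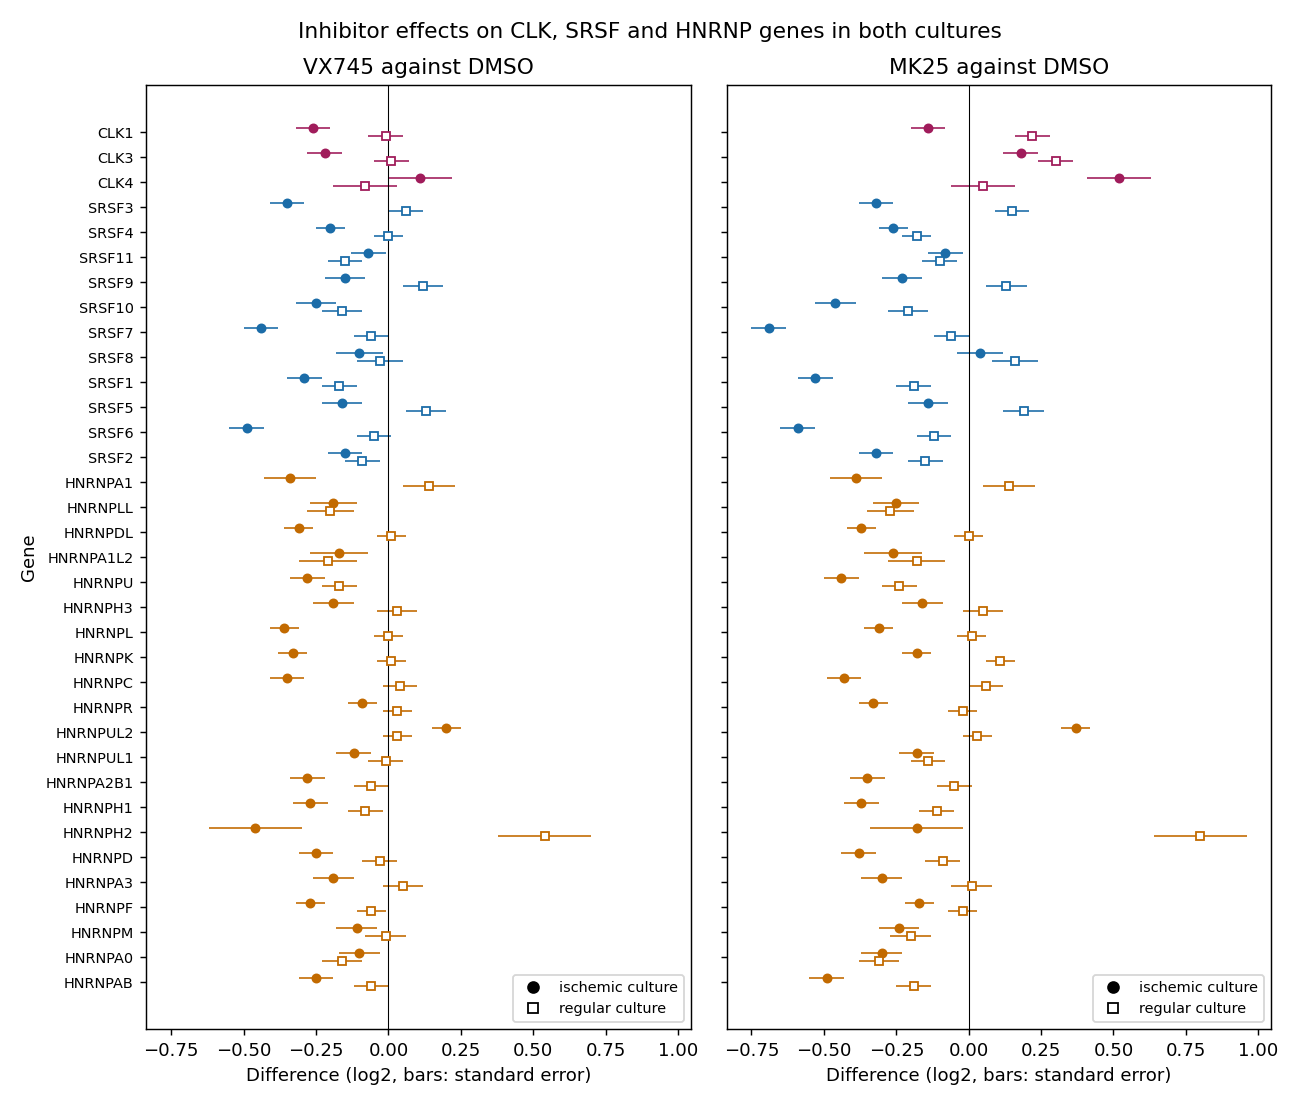
Difference between inhibitor and DMSO in log2 units for 35 genes, with VX745 on the left and MK25 on the right, filled circles for ischemic and open squares for regular culture, and bars of 1 standard error. In ischemic culture 33 of 35 genes lie below 0 with VX745 and 31 of 35 with MK25, whereas in regular culture 20 and 19 do. Of all 14024 genes, 6955 and 7032 lie below 0 in ischemic and 7225 and 6935 in regular culture. Among the 3711 genes with a mean of at least 6, 2630 and 2604 do in ischemic and 2054 and 2039 in regular culture.

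The effect of an inhibitor differed between the cultures for part of the members. For VX745 the difference of effects (ischemic minus regular) was negative at an adjusted p under 0.05 in 9 members and positive in none, beside 6% and 5.78% of all genes. The 9 became 5 without ischemic VX745 replicate 1 and 16 without regular DMSO replicate 1. For MK25 it was negative in 19 and positive in 2, beside 13.9% and 10.5%, again with the regular MK25 libraries in which CA9 was raised, whose part was not tested. Of the 3711 genes with a mean of at least 6, 555 were negative and 195 positive for VX745, and 1103 and 362 for MK25. SRSF7 gave the strongest evidence with MK25 (-0.63, SE 0.08, adjusted p = 3.92e-05) and SRSF6 with VX745 (-0.44, SE 0.08, adjusted p = 0.00305). After quantile normalization 3 members were negative for VX745, and 6 were negative and 3 positive for MK25. The matching shares of all genes are not given here.

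Gene-level values add up all transcripts of a gene. In GENCODE release 44, an NMD transcript is annotated for 11 of 11 SRSF, 14 of 21 HNRNP and 3 of 3 CLK genes, or 80.0% of members against 47.4% of 12191 listed protein-coding genes, and a retained-intron transcript for 77.1% against 60.3%. Members also have more annotated transcripts, with a median of 13 against 8. A difference in a gene's level here does not tell the coding from the NMD or retained-intron form. The RefSeq spans of HNRNPAB (PHYKPL), HNRNPH3 (PBLD and RUFY2), HNRNPK (RMI1), SRSF2 (MFSD11), SRSF4 (MECR) and SRSF9 (GATC) overlap the listed gene in parentheses, that of SRSF1 overlaps a listed long noncoding RNA, and the use of strand in the counting is not given in the sources used here.

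Other genes, mostly of the splicing machinery, were taken as 6 lists. Their counts in the first experiment stand beside 35.2% of all genes that rose and 35.2% that fell. In the first experiment, 4 of 11 kinase genes of the SRPK, DYRK and HIPK families rose and 3 fell. SRPK1, the main cytoplasmic SR protein kinase, fell by 0.98 (SE 0.07, adjusted p = 1.26e-07) where the CLK genes rose, and fell by 0.70 with DMSO (SE 0.05, adjusted p = 2.2e-09). DYRK3 (-0.50) and DYRK2 (-0.34) also fell, and DYRK1B (2.26), HIPK3 (0.92) and DYRK4 (0.52) rose. SRPK2 differed by 0.00 (SE 0.08, adjusted p = 0.975).

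Of 25 SR-related splicing proteins 10 rose and 8 fell, with CLASRP (0.84), a protein that binds CLK4, RSRP1 (0.67) and RSRC2 (0.58) among the rises and LUC7L (-0.93), PNN (-0.81) and U2AF2 (-0.58), the large subunit that reads the polypyrimidine tract, among the falls. RSRP1 did not pass with DMSO (-0.10, SE 0.07, limma adjusted p = 0.246). Of 15 hnRNP proteins under other symbols 6 rose and 7 fell, with PCBP3 (1.56), CIRBP (0.98), the cold-induced RNA-binding protein, and PCBP1 (0.49) against TARDBP (-0.68), MATR3 (-0.45) and KHSRP (-0.43). Of 48 core spliceosome genes 13 rose and 21 fell, with SLU7 (0.97), PRPF39 (0.90) and SYF2 (0.69) against SNRPG (-0.98), SNRPA1 (-0.95) and EFTUD2 (-0.76).

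Of 20 tissue-type and stress splicing regulators 10 rose and 6 fell, with ESRP1 (3.65), an epithelial regulator, MBNL2 (0.89) and RBM39 (0.86) against NOVA2 (-0.90), ELAVL1 (-0.51) and KHDRBS3 (-0.43). KHDRBS3 instead rose with DMSO (0.36, SE 0.06, limma adjusted p = 4.41e-05). The other genes named from the 6 lists passed with DMSO in the same direction, apart from RSRP1 and SRPK2. Of 10 NMD factors 5 rose and 2 fell, with the kinase SMG1 (1.05), SMG6 (0.90), the endonuclease of the pathway, and SMG9 (0.74) against the helicase UPF1 (-0.46) and SMG8 (-0.31). In ischemic culture, none of 49 core spliceosome genes rose with either inhibitor, while 27 fell with VX745 and 34 with MK25. None of the 15 hnRNP proteins under other symbols rose either, and 11 and 12 fell. Of all genes 14.9% and 22% fell in these comparisons, and of those with a mean of at least 6, 33.9% and 44.5% did. Rises were seen in 14% and 19.8% of all genes, and in 368 and 530 of the 3711 genes with a mean of at least 6. Quantile normalization was not run for these lists.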

How the data were processed

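LN229 RNA was sequenced in 2 experiments (16 libraries, 8 groups of 2, grouped by their titles). Per the labels and the study's methods, the authors made libraries with a SMART-Seq kit and Nextera XT, used Galaxy for alignment (HISAT2, GRCh38) and gene counts, normalized with edgeR and deposited log2 normalized CPM for each library. The counter and its use of strand are not given in the sources used here. The authors' comparisons were not used.

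Entrez identifiers were matched to RefSeq symbols (GRCh38.p14) for 99.4% and 99.3% of 13559 and 14024 genes. Undoing the logarithm gave whole reads within 0.05 for 100.0% of values, after a median offset of 2.05 reads, and hence the depth, and no member was at the floor of 3 reads. The offset makes changes of low genes appear smaller, and floors cover counting error only, since amplified reads were not collapsed to molecules.

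The deposited log2 values were tested with limma (version 3.58.1, R 4.3.3): 1 mean per group, empirical Bayes with a variance trend, two-sided p, Benjamini-Hochberg adjustment over all genes of a table, 12 comparisons, threshold 0.05. The second experiment was fitted with all 12 libraries. Beside it, a 2-fold limit was used for ischemia and 1.5-fold for inhibitors. In simulated data for ischemic against regular culture of the first experiment (13559 genes), among those expected at 100 reads or more, 80 of 80 genes with a log2 change of 1 and 62 of 82 with one of 0.585 were called, as were 3 of 13359 unchanged genes. The simulation changed few genes and gave all of them the same dispersion. Its rates therefore do not carry over to the data, in which most genes passed for ischemia.

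The members and lists were chosen with earlier results of these data known. Genes named were all CLK genes, the 4 largest SRSF and HNRNP rises and falls in the first experiment (3 SRSF and 2 HNRNP genes rose), genes past 1.5-fold with an inhibitor or else the 3 smallest adjusted p, all interactions, and the 3 largest rises and falls of each of the 6 lists. Other members are named to account for all 35. Promoter windows came from RefSeq (SRSF2 and HNRNPA1 had no entry) and transcript types from GENCODE release 44. Alternatives were median centring, quantile normalization, a mean of at least 1 CPM, no variance trend, voom on the recovered reads, a replicate block, only the groups compared, an unadjusted p, and each library left out in turn. Proteins were not analysed here. Figures used Python 3.11.15 and matplotlib 3.10.9.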

Additional observations from a re-analysis of the deposited data

Results flagged for a closer look

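For the genes below, the effect of an inhibitor against DMSO differed between ischemic and regular culture by the test of the difference itself (limma interaction, adjusted p under 0.05). Values are the effect in ischemic minus the effect in regular culture on the log2 scale. With VX745 these were HNRNPH2 (-1.0), HNRNPA1 (-0.48), SRSF6 (-0.44), SRSF3 (-0.40), HNRNPC (-0.39), SRSF7 (-0.38), HNRNPL (-0.36), HNRNPK (-0.34) and HNRNPDL (-0.32).

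With MK25 the 6 SRSF genes were SRSF7 (-0.63), SRSF3 (-0.47), SRSF6 (-0.47), SRSF9 (-0.36), SRSF1 (-0.34) and SRSF5 (-0.33). The 12 HNRNP genes with a negative difference were HNRNPH2 (-0.98), HNRNPA1 (-0.53), HNRNPC (-0.50), HNRNPDL (-0.37), HNRNPL (-0.32), HNRNPA2B1 (-0.31), HNRNPA3 (-0.31), HNRNPAB (-0.31), HNRNPR (-0.31), HNRNPD (-0.29), HNRNPK (-0.29) and HNRNPH1 (-0.26). CLK1 (-0.36) was negative as well, and CLK4 (0.47) and HNRNPUL2 (0.34) were positive. The differences with MK25 rest on the regular MK25 libraries, in which CA9 was raised (2.14 and 2.30), and its part in them was not tested. The 9 differences with VX745 and the 21 with MK25 share the 4 DMSO libraries. The values of HNRNPH2 rest on 79 to 161 reads per library, and the RefSeq read-through gene RPL36A-HNRNPH2 overlaps it. HNRNPA1 was 0.39 apart between the regular DMSO replicates. Among the 9 genes with VX745, 2 kept their call under all alternatives that used every library, and among the 21 with MK25, 5 did.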

How the results depend on the processing

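The direction of the CLK rises held in all 4 ischemic comparisons under every alternative run. The counts of members were most affected by quantile normalization, for which shares of all genes are not given here. It gave 7 higher and 22 lower members for ischemic culture with DMSO, 7 lower for VX745 and 14 lower for MK25 in ischemic culture, 1 higher and 1 lower for MK25 against VX745 in regular culture, and 3 and 6 lower for the interactions with VX745 and MK25. It also turned the difference of HNRNPC (-0.11), HNRNPDL (-0.12) and HNRNPUL1 (-0.23) in ischemic culture with DMSO, of HNRNPK (0.08) and HNRNPUL1 (0.06) for MK25 in ischemic culture, and of HNRNPK (0.02) in the MK25 interaction. The cause was not tested. The family medians for SRSF and HNRNP then were -0.11 and -0.11 with VX745 and -0.15 and -0.17 with MK25 in ischemic culture.

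Without the variance trend there were 0 lower members for MK25 in regular culture, 1 higher for MK25 against VX745 in each culture, 4 lower in the VX745 interaction and 1 higher in the MK25 interaction. With only the groups compared there were 1 lower for MK25 in regular culture, 1 higher for MK25 against VX745 in regular culture and 1 higher in the MK25 interaction. For MK25 against VX745 in regular culture, median centring gave 1 lower and voom 1 higher. An unadjusted p gave 1 higher and 6 lower for VX745 and 5 higher for MK25 in regular culture, 4 lower for MK25 against VX745 in regular culture, and 1 higher and 21 lower in the VX745 interaction. Of all 14024 genes, 2075, 3875, 2471 and 3813 were under 0.05 without adjustment in these comparisons, in that order and in either direction.

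With each library left out, the members higher in ischemic culture with DMSO numbered 7 to 13, with 7 without regular DMSO replicate 2. For VX745 in ischemic culture, higher members numbered 0 to 0. In regular culture, higher members numbered 0 to 2 for VX745 (2 without regular DMSO replicate 1) and 2 to 6 for MK25 (6 without that library), and lower members 2 to 5 for MK25, with 2 without either regular MK25 library or regular DMSO replicate 2. For MK25 against VX745, higher members numbered 1 to 1 and lower members 0 to 6 in ischemic culture, with 0 without ischemic MK25 replicate 1 and 3 without either VX745 library. In regular culture, higher members numbered 0 to 2, with 0 without VX745 replicate 1 and 1 without VX745 replicate 2 or MK25 replicate 2. In the interactions, lower members for VX745 numbered 5 (without ischemic VX745 replicate 1) to 16 (without regular DMSO replicate 1), and higher members for MK25 numbered 1 to 2, with 1 in all but the fits without regular MK25 replicate 2 or regular DMSO replicate 2.

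Whether the replicate numbers pair the samples is not known, and the main fits did not pair them. Deviations of same-numbered libraries correlated at 0.27 in the first experiment and between -0.27 and 0.32 (median -0.05) over 15 pairs of groups in the second. With 2 libraries per group these values cannot exclude shared batches. A fit with the replicate block gave 8 higher and 16 lower members in the first experiment and moved no count of members by over 1.5 times. Of the 272 calls of single genes and counts by family, 2 were lost under the block. With 2 libraries per group, each gene's spread rests on that of genes of similar level, and no depth limit touched members other than HNRNPH2.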
